A study of Mus musculus with 15 samples.

Results

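The clustered protocadherins are 58 genes of the 21662 counted in mouse embryonic stem cells (ESC), chosen by their symbols alone: 14 of the alpha cluster (Pcdha1 to Pcdha12, Pcdhac1 and Pcdhac2), 22 of the beta cluster (Pcdhb1 to Pcdhb22) and 22 of the gamma cluster (12 Pcdhga, 7 Pcdhgb and 3 Pcdhgc genes). Only the gamma cluster was read at a clear level in ESC, and the count of each gamma gene was made up mostly of reads that could lie on exons shared by all of them. The gamma genes did not differ beyond error between Hmga1 KO cells and WT. They stood higher in all 3 samples of a full deletion of Hmga1 than in the 3 WT samples beside them, as did 26.7% of all genes tested. That difference missed the adjusted threshold, and the call depended on WT sample b and on the test used. The beta genes were near the limit of detection throughout, and as a sum they were lower in all 6 samples of Hmga1 KO and its add-backs than in the 3 WT samples of that experiment. In batch b this difference lay within counting error, and many other scarce genes also had log2 fold changes below 0 against WT. The WT samples of the full-deletion experiment, scaled on their own, had beta sums in the range of those 6 samples. The alpha genes held a handful of reads per sample.

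Clustered protocadherins are cadherin-like adhesion proteins of the cell surface, best known from the nervous system, where each neuron uses its own small mixture of them and binds cells that carry the same mixture. In the alpha and gamma clusters, each gene has its own promoter and its own large variable exon, which encodes the extracellular part, and this exon is spliced to a set of constant exons at the end of the cluster that encodes a common cytoplasmic tail. Beta genes have no constant exons and each consists, in the main, of a single large exon. Promoter choice in neurons depends on CTCF and cohesin loops and on DNA methylation. The C-type genes (Pcdhac1, Pcdhac2, Pcdhgc3, Pcdhgc4 and Pcdhgc5) are known for being less random in their use than the rest. In the mm9 assembly (GENCODE vM1), the 3 clusters stood in a row on the plus strand of chromosome 18. The alpha cluster ran from 37089939 to 37347311, the beta cluster from 37424652 to 37681073, and the gamma cluster from 37833989 to 38001527.

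The study asked how loss of Hmga1, an abundant AT-hook protein of chromatin, changes transcription in ESC, in 2 RNA-seq experiments with 15 samples. The KO experiment held wild type ESC (WT, 3 samples), ESC with frameshift mutations in the coding sequence of Hmga1 (Hmga1 KO, 2 samples), and the same KO line with a biotin-tagged Hmga1 (Hmga1 add-back, 2 samples) or Hmga2 (Hmga2 add-back, 2 samples) inserted at a defined locus behind a strong promoter. The second experiment held ESC that lack the complete coding sequence of Hmga1 (full deletion, 3 samples) and their own WT (3 samples). Both add-back lines therefore also carry the Hmga1 mutation, each altered genotype is represented by a line rather than by many independent clones, and p-values measure only the spread between cultures of these lines. Libraries were strand-specific and depleted of ribosomal RNA.

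Samples a and b of the KO experiment were each prepared and sequenced with their own batch, and WT sample c stood alone in a batch of its own. A fit with the batch as a block gives sample c a term of its own. Comparisons with WT in such fits therefore rest on WT samples a and b. Summed counts ran from 13465399 to 34952136 per sample in the KO experiment and from 14832310 to 21708492 in the full-deletion experiment. One WT sample of the full-deletion experiment, b, stood apart from the others: its 10 most abundant genes took 8.78% of the counts, against 4.67% to 5.38% in the other 5 samples. Fits of the full deletion against WT are given below with and without it, and the test between the experiments was run only with it. The pluripotency markers Pou5f1, Sox2 and Nanog were present in every group, with group means of 642 to 954 CPM for Pou5f1. Hmga1 had a mean of 340 CPM in WT and of 11.8 CPM in the full deletion of that experiment. In the KO experiment the mutated locus is still present and can be read, and Hmga1 was at 464, 276 and 220 CPM in WT samples a, b and c, at 217 and 96.0 CPM in KO samples a and b, and at 184 and 123 CPM in the Hmga1 add-back. The Hmga1 reads alone therefore did not set the libraries labelled Hmga1 add-back apart from KO. Hmga1 protein, which the study also measured in these lines, was not analysed here. Hmga2 reads reached 249 and 222 CPM in the Hmga2 add-back against at most 23.8 CPM in the other samples of that experiment. CPM values are counts relative to the library size, with TMM scaling within each experiment, so levels of the 2 experiments were scaled separately and are only set side by side. RPKM values divide CPM by length in kilobases.

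The sharing of exons decided what could be read from the alpha and gamma genes. Reads on a shared exon were counted once for every gene that holds it, so the 22 gamma values of a sample were nearly a single measurement. The 3 shared gamma exons cover 59, 89 and 1971 bases, 2119 in all, and each gamma gene has 2363 to 2960 exonic bases of its own. For alpha, the shared exons cover 2860 bases and the own part 2349 to 3749 bases. In WT sample a, the 22 gamma genes held 1892 to 2181 counts each. Across the 15 samples, the gamma gene with the fewest reads held 89.8% to 97.1% of the mean over the gamma genes. The lowest gene of a sample is an upper limit on the reads that all genes of the cluster share, and the excess of another gene over it is a count of reads that cannot lie on exons shared by all. A shared read enters 22 counts but is a single read. Summed over the 22 genes, the excess came to 2145 reads in WT sample a, beside the 1892 of the lowest gene, and over the 15 samples it made up 39.9% to 71.5% of the excess and the lowest gene's reads together, provided that no excess read was counted for several genes. Per kilobase of the shared exons, the lowest gamma gene corresponded to at most 28.2, 24.5 and 13.7 RPKM in WT samples a, b and c.

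**Figure D1:**
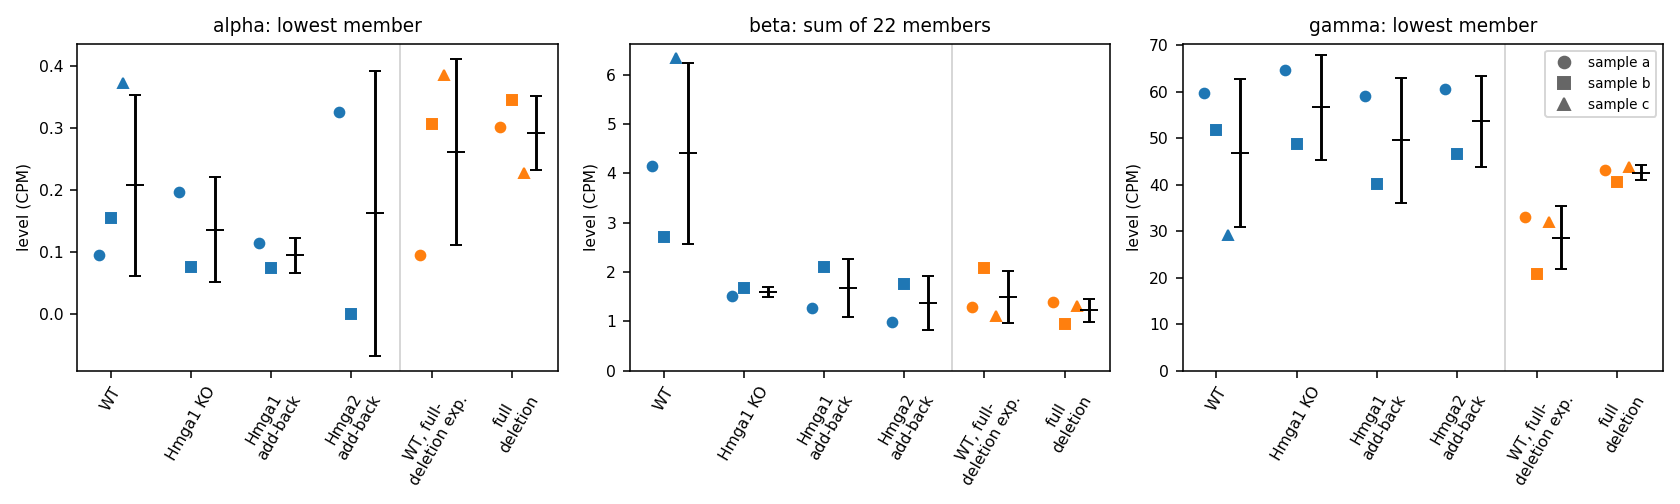
Levels of the 3 clusters in every sample, in CPM on linear axes, with circles, squares and triangles for samples a, b and c, blue for the KO experiment and orange for the full-deletion experiment; black bars give the mean and SD of each group. Left and right panels show the alpha and gamma gene with the fewest reads in each sample, the middle panel the sum over the 22 beta genes; gamma stood at 20.8 to 64.7 CPM, alpha under 0.4 CPM, and the beta sum was highest in the 3 WT samples of the KO experiment.

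Within the gamma cluster, the reads beyond the shared part were spread unevenly over the genes. By the mean over all samples of an experiment, the first 4 genes were the same in both experiments. Pcdhga1, the first gene of the cluster, had the largest excess, with a mean of 9.51 ± 0.543 CPM (SD, n = 9) in the KO experiment and 11.3 ± 2.96 CPM (SD, n = 6) in the full-deletion experiment. Pcdhga11 followed with 6.53 ± 1.05 and 5.35 ± 2.00 CPM, and Pcdhgc3, a C-type gene, with 4.76 ± 1.14 and 3.46 ± 0.516 CPM. Pcdhga8 came next in both experiments, with 4.12 ± 1.65 and 3.21 ± 0.938 CPM. Below Pcdhga1 the order was not the same in every group. In the full deletion the mean was 3.91 CPM for Pcdhga8, 3.73 CPM for Pcdhga11 and 3.18 CPM for Pcdhgc3. In Hmga1 KO it was 4.07 CPM for Pcdhga8 and 3.42 CPM for Pcdhgc3. Of the Pcdhgb genes, Pcdhgb5 had 3.33 ± 1.30 and 1.78 ± 0.471 CPM, Pcdhgb4 2.61 ± 0.739 and 1.12 ± 0.452 CPM, Pcdhgb7 1.99 ± 0.596 and 1.62 ± 0.386 CPM, and Pcdhgb6, the lowest of its type, 1.03 ± 0.436 and 0.775 ± 0.376 CPM.

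At the other end, the C-type genes Pcdhgc4 and Pcdhgc5 and the A-type gene Pcdhga6 had hardly a read of their own. The mean excess of Pcdhgc4 was 0.0974 CPM in the KO experiment and 0.125 CPM in the full-deletion experiment, that of Pcdhgc5 was 0.319 and 0.126 CPM, and that of Pcdhga6 was 0.0936 and 0.229 CPM. Each of these 3 genes was itself the lowest gamma gene in some of the samples, so its true level of own reads could not be told from 0 here. The C-type genes of the gamma cluster therefore differed among themselves, with Pcdhgc3 above the other 2 in each of the 15 samples. Per kilobase of own exons, the excess of Pcdhga1 averaged 3.93 RPKM in the KO experiment, that of Pcdhga11 2.52 RPKM and that of Pcdhgc3 1.85 RPKM.

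**Figure D2:**
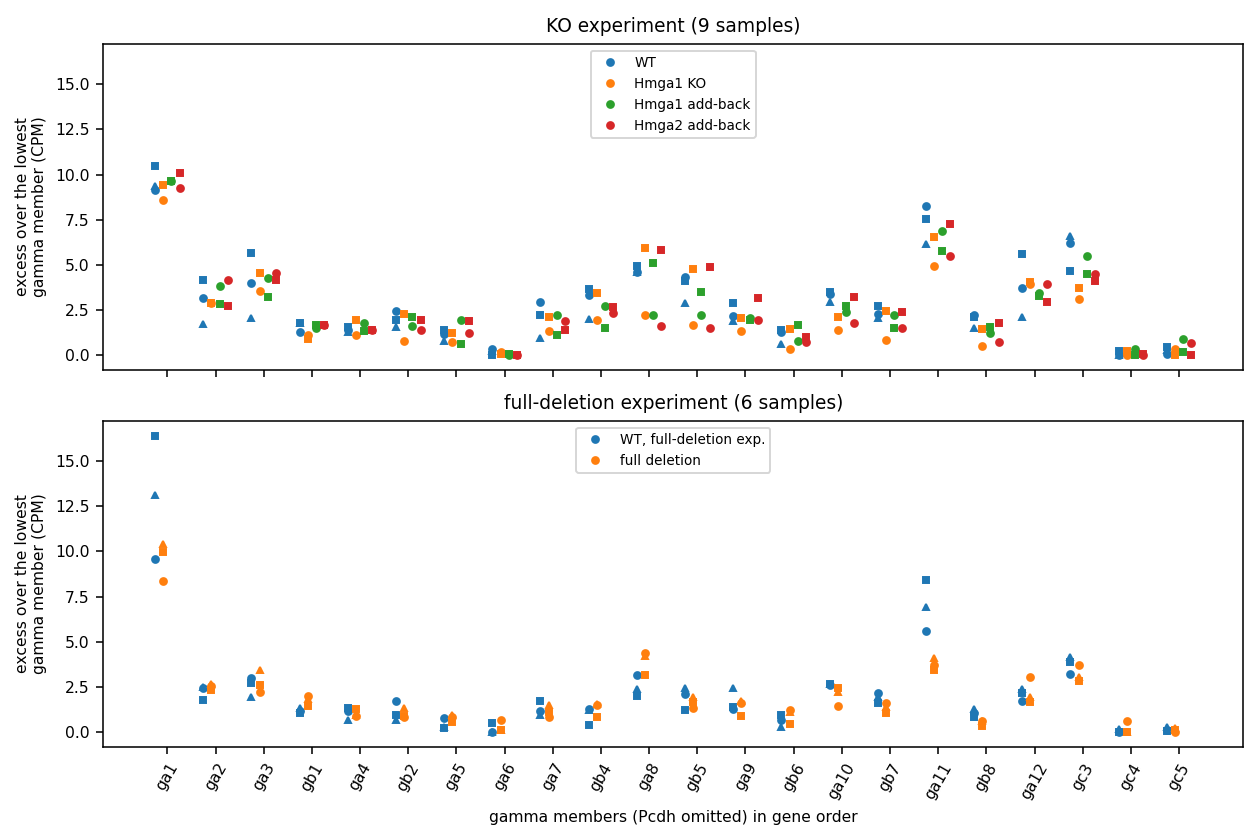
Excess of each of the 22 gamma genes over the gamma gene with the fewest reads in the same sample, in CPM on a linear axis, with the genes in chromosomal order and a point per sample, coloured by group (circles, squares and triangles for samples a, b and c). Pcdhga1 stood highest in every sample, and Pcdhga11 and Pcdhgc3 followed in the mean over each experiment but not in every group. Pcdhga6, Pcdhgc4 and Pcdhgc5 lay near 0 in both experiments.

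The excess of Pcdhga1 and the shared part did not move together between the samples of the KO experiment. In WT samples a, b and c of the KO experiment the lowest gamma gene stood at 59.8, 51.9 and 29.1 CPM, while the excess of Pcdhga1 was 9.14, 10.5 and 9.37 CPM. WT sample c thus had the lowest shared level of its group and a Pcdhga1 excess between those of the other WT samples. Other gamma genes differed in this. In WT samples a, b and c the excess of Pcdhgb5 was 4.33, 4.11 and 2.90 CPM, lowest in c, while that of Pcdhgb1 was 1.26, 1.78 and 1.78 CPM. The Hmga1 KO samples a and b had a lowest gamma gene of 64.7 and 48.7 CPM and a Pcdhga1 excess of 8.58 and 9.42 CPM. In both add-backs the Pcdhga1 excess lay between 9.27 and 10.1 CPM. Sample a had the higher shared level in each of the 4 groups of the KO experiment, with 59.1 to 64.7 CPM against 40.1 to 51.9 CPM in sample b, and the levels of batches a and b did not overlap. In the full-deletion experiment, WT sample b had both the lowest shared level, at 20.8 CPM, and the highest Pcdhga1 excess, at 16.4 CPM.

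**Figure D3:**
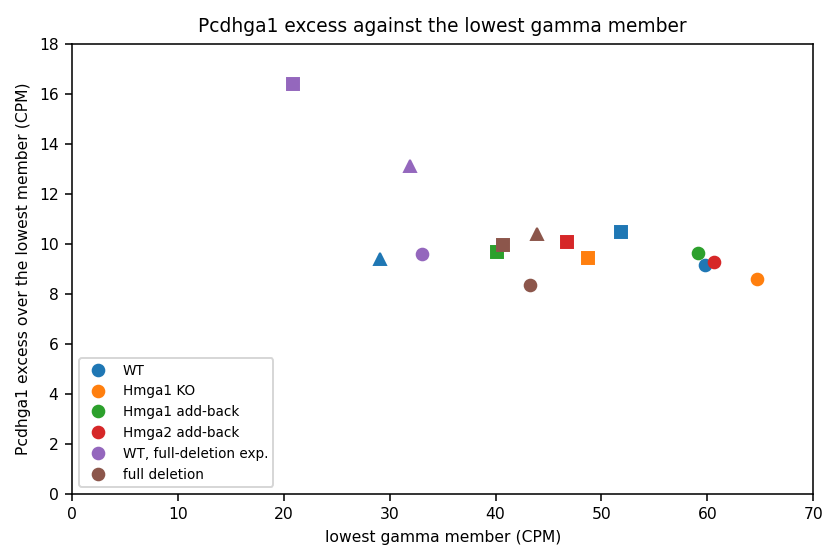
Excess of Pcdhga1 (vertical axis, CPM) against the gamma gene with the fewest reads (horizontal axis, CPM) in each of the 15 samples, coloured by group, with circles, squares and triangles for samples a, b and c and linear axes from 0. The lowest gene varied from 20.8 to 64.7 CPM, and the excess stayed between 8.34 and 10.5 CPM in all but 2 WT samples of the full-deletion experiment.

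In the comparison of Hmga1 KO with WT, no clustered protocadherin passed the test. Of the 58 genes, 23 averaged 10 or more counts over the experiment and could be tested, the 22 gamma genes and Pcdhb14. By edgeR's quasi-likelihood test with the batch as a block and Benjamini-Hochberg adjustment over 13912 genes, 0 of the 23 had an adjusted p under 0.05, where 0.0647% of all genes tested did, and 0 had an unadjusted p under 0.05, where 12.6% of all genes did. At a stricter threshold (adjusted p under 0.01 and at least 2-fold) 0.0216% of all genes and 0 of the 23 passed. The log2 fold changes of the 22 gamma genes lay between -0.04 and 0.01, with standard errors of 0.12 to 0.13. For Pcdhga1 the 95% confidence interval of the log2 fold change ran from -0.28 to 0.27, and for Pcdhgc4 from -0.28 to 0.30. Without the batch as a block, WT sample c enters the comparison too. Its lowest gamma gene was at 29.1 CPM, against 59.8 and 51.9 CPM in WT samples a and b. The 22 log2 fold changes were then 0.19 to 0.28, and again none passed. The smallest p-values among the gamma genes were those of Pcdhga11 and Pcdhgc3 (-0.04 for each). Within batch a, the lowest gamma gene of KO was at 108% of the WT level, and within batch b at 93.9%.

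Beyond the shared part, the excess of Pcdhgc3 was 6.23, 4.65 and 6.60 CPM in WT samples a, b and c and 3.11 and 3.72 CPM in KO, so both KO samples lay below WT. The same held for Pcdhga10, Pcdhgb1 and Pcdhgb8, so for 4 of the 22 genes, and no gene lay above WT in both KO samples without overlap. By level rather than excess, 10.5% of all genes tested lay wholly below WT in KO and 13% wholly above. Of the 22, 18 had a lower mean excess in KO. The same lowest count is taken from all 22 genes of a sample, so these are not independent. For Pcdhgc3, the Hmga1 add-back had 5.48 and 4.50 CPM and the Hmga2 add-back 4.47 and 4.08 CPM, between KO and the highest WT sample. The excess of Pcdhga11 was 8.25, 7.52 and 6.14 CPM in WT and 4.94 and 6.53 CPM in KO, which overlap. These values were picked out after they had been seen and have no test.

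In the add-backs, the 23 genes tested gave no call either by edgeR's quasi-likelihood test. In the Hmga1 add-back the 22 gamma genes had log2 fold changes of -0.22 to -0.16 against WT, and 0 of 23 passed an adjusted p of 0.05 (0.0431% of all genes did), an unadjusted p of 0.05 (13.3%) or the stricter threshold (0.0144%). Against KO they were -0.21 to -0.15, with 0 of 23 past the same thresholds (0%, 2.8% and 0% of all genes). In the Hmga2 add-back they were -0.09 to -0.06 against WT, with 0 of 23 past (0.165%, 16.9% and 0.0647%), and -0.09 to -0.05 against KO, with 0 of 23 past (0.0144%, 5.09% and 0.00719%). Without the batch as a block, WT sample c entered here too. The direction against WT then turned, to 0.05 to 0.09 in the Hmga1 add-back and 0.14 to 0.20 in the Hmga2 add-back. Without sample a of the Hmga1 add-back its range against WT was -0.37 to -0.28, and without sample b -0.10 to -0.06. Between the Hmga2 and the Hmga1 add-back they were 0.09 to 0.13, with 0 of 23 past (0.0144%, 1.27% and 0.00719%). These comparisons share WT or KO samples. No gamma gene passed an adjusted p of 0.05 in these 6 comparisons with DESeq2, limma-trend or any sample left out.

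In the full deletion the gamma genes stood higher than in WT. The lowest gamma gene was at 33.0, 20.8 and 31.9 CPM in WT samples a, b and c and at 43.3, 40.7 and 43.9 CPM in the full-deletion samples. Every full-deletion sample lay above every WT sample, and WT sample b was the lowest. The log2 fold changes of the 22 genes were 0.33 to 0.58 (median 0.55, against 0.04 over the 13098 genes tested), with standard errors of 0.11 to 0.18. By edgeR's quasi-likelihood test none of the 22 passed an adjusted p of 0.05, where 8.25% of all genes tested did, or the stricter threshold, where 0.0687% did. The smallest adjusted p was 0.0672, for Pcdhgb6 (log2 fold change 0.57, standard error 0.17, 95% confidence interval 0.18 to 0.97) and Pcdhga6 (0.58), followed by Pcdhga7 (0.55), all of which carry mostly shared reads. All 22 had an unadjusted p under 0.05, a threshold that 18.4% of all genes passed in the same direction, and for 26.7% of the genes tested the full-deletion samples all lay above the WT samples. Since the 22 genes share most of their reads, they amount to little more than a single gene in such counts.

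The call turned on WT sample b. Without it, the log2 fold changes shrank to 0.25 to 0.40 and all 22 genes passed an adjusted p of 0.05 by edgeR's quasi-likelihood test (0.000257 to 0.00682), as did 42.5% of all genes tested. With DESeq2's Wald test on all 6 samples, 20 of the 22 passed, against 24.7% of all genes. With a full-deletion sample or another WT sample left out, 0 passed, and the log2 fold changes stayed between 0.29 and 0.69. When counts were scaled by their sum rather than by TMM, the median over all genes moved to 0.32 on the log2 scale, and the gamma genes were then at 0.60 to 0.83, still above it.

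The excess of single gamma genes moved in both directions in the full deletion. Of the 22 genes, 10 had a higher and 12 a lower mean excess than in WT, while the lowest gene was higher. Groups did not overlap for 2 of the 22, Pcdhga8 and Pcdhgb1, which were higher, and for 3, Pcdhga10, Pcdhga11 and Pcdhgb8, which were lower. By level rather than excess, 26.7% of all genes tested lay wholly above WT and 24.6% wholly below. The 2 and 3 of 22 were not above those shares. The excess of Pcdhga8 was 3.13, 2.02 and 2.41 CPM in WT samples a, b and c and 4.35, 3.15 and 4.22 CPM in the full deletion. That of Pcdhgb1 was 1.19, 1.04 and 1.35 CPM in WT and 2.00, 1.47 and 1.82 CPM in the full deletion. The excess of Pcdhga1 was 9.58, 16.4 and 13.1 CPM in WT and 8.34, 9.97 and 10.4 CPM in the full deletion, so the groups overlapped. The excess of Pcdhga11 was 5.60, 8.39 and 6.93 CPM in WT and 3.69, 3.41 and 4.09 CPM in the full deletion, so it was lower in every full-deletion sample than in every WT sample while the shared level was higher. Pcdhgc3 had an excess of 3.23, 3.86 and 4.14 CPM in WT and 3.69, 2.81 and 3.04 CPM in the full deletion, which overlap. Pcdhga1 and Pcdhga11, the genes with the most reads of their own, had the smallest log2 fold changes of the 22, 0.33 (95% confidence interval 0.08 to 0.57) and 0.38 (0.07 to 0.69). These excess values are descriptions, picked out after they had been seen and not tested. For Pcdhga1, Pcdhga11 and Pcdhgc3 they rest on 61 to 272 reads per sample.

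**Figure D4:**
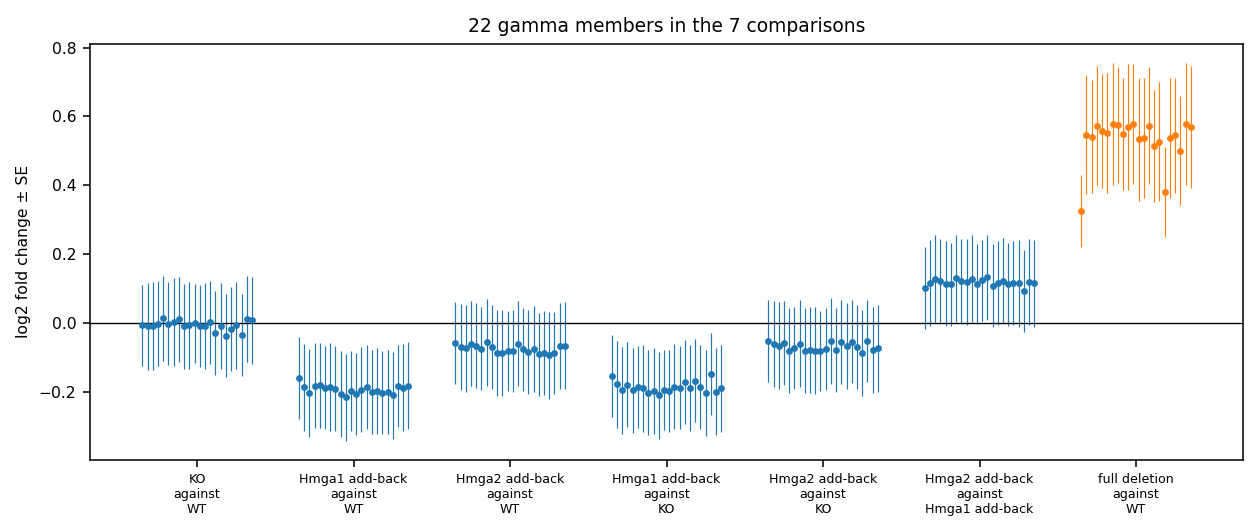
Log2 fold changes of the 22 gamma genes in the 7 comparisons, from edgeR's quasi-likelihood fit, with bars of 1 standard error and the genes of a comparison side by side in chromosomal order. In KO against WT the points lie between -0.04 and 0.01, in the full deletion they lie between 0.33 and 0.58 with Pcdhga1 and Pcdhga11 lowest, and none passed an adjusted p of 0.05.

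Whether the effect of the KO differed from that of the full deletion was tested in a joint fit of all 15 samples. The KO effect was lower by 0.32 to 0.57 on the log2 scale for the 22 gamma genes, and 21 of the 22 had an unadjusted p under 0.05, against 8.52% of 13671 genes in that direction. None passed after adjustment (edgeR's quasi-likelihood test, adjusted p 0.249 to 0.299), where 0.307% of all genes did, or at the stricter threshold, where 0.0951% did. A difference between the 2 ways of losing Hmga1 was therefore not shown for the gamma cluster with all samples in. The joint fit was not run without WT sample b of the full-deletion experiment, on which the call in that experiment turned.

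The beta genes were scarce in ESC. Over the 22 genes together, the WT samples a, b and c of the KO experiment held 131, 35 and 153 reads, and single genes held at most 23. The highest level per length of any beta gene in any sample was 0.230 RPKM, for Pcdhb22 in WT sample c. Pcdhb14 was the most abundant, with 0.665 ± 0.123 CPM in WT (SD, n = 3) and 0.328 ± 0.156 CPM over KO and both add-backs (SD, n = 6). Pcdhb22 followed with 0.450 ± 0.239 and 0.195 ± 0.147 CPM, and Pcdhb18 with 0.356 ± 0.114 and 0.215 ± 0.157 CPM. The lowest was Pcdhb5, with 5 reads over the 3 WT samples and 0 over the other 6.

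As a sum, the beta genes stood at 4.14, 2.71 and 6.35 CPM in WT samples a, b and c, at 1.51 and 1.67 CPM in Hmga1 KO, at 1.26 and 2.10 CPM in the Hmga1 add-back and at 0.977 and 1.76 CPM in the Hmga2 add-back. All 6 samples with the Hmga1 mutation lay below all 3 WT samples. The nearest pair was WT sample b at 2.71 CPM and Hmga1 add-back sample b at 2.10 CPM (exact Poisson interval 1.39 to 3.03 CPM), a difference within counting error. Against WT, the log2 ratio of the group means was -1.47 for KO, and -1.39 and -1.69 for the add-backs of Hmga1 and Hmga2. Without WT sample c, which has no partner in its batch, these were -1.11, -1.03 and -1.32. Within batch a, the sums were at 36.6%, 30.5% and 23.6% of WT in KO and in the add-backs of Hmga1 and Hmga2, and within batch b at 61.6%, 77.3% and 64.8%. In batch b the difference was within counting error: WT sample b had an exact Poisson interval of 1.89 to 3.77 CPM (95%), and KO sample b one of 1.05 to 2.53 CPM. In batch a the intervals were 3.46 to 4.91 CPM for WT and 1.14 to 1.98 CPM for KO. Poisson intervals cover counting error only.

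In the mean over KO and both add-backs, 21 of the 22 beta genes were below their WT mean. The count differed between batches. Within batch a, 21, 20 and 21 of the 22 were below WT in KO and in the add-backs of Hmga1 and Hmga2, and 1, 2 and 1 were above. Within batch b, where reads were fewest, 13, 11 and 10 were below and 3, 4 and 4 above. Pcdhb14 had 0.664, 0.543 and 0.788 CPM in WT, 0.336 and 0.152 CPM in KO, 0.201 and 0.450 CPM in the Hmga1 add-back and 0.266 and 0.563 CPM in the Hmga2 add-back, so the KO samples lay below WT and a sample of the Hmga2 add-back lay within it. As the sole beta gene with enough reads to test, it had a log2 fold change of -1.14 in KO against WT (standard error 0.61, 95% confidence interval -2.54 to 0.26, adjusted p = 0.480 by edgeR's quasi-likelihood test), which did not pass. It was at -1.11 in the Hmga1 add-back (adjusted p = 0.465) and -0.73 in the Hmga2 add-back (adjusted p = 0.525) against WT.

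In 4 of the 22 beta genes, Pcdhb6, Pcdhb11, Pcdhb16 and Pcdhb21, every KO and add-back sample lay below every WT sample, where 3.65% of all genes with a count did so. They are named because they did not overlap, after their values were seen. Pcdhb6 had 0.253, 0.233 and 0.207 CPM in WT, against 0 to 0.143 CPM in the other 6 samples. Pcdhb16 had 0.221, 0.233 and 0.954 CPM in WT, against 0 to 0.115 CPM. These values rest on 3 to 8 reads per WT sample for Pcdhb6 and on 3 to 23 for Pcdhb16. Counting KO alone against WT, 9 of the 22 beta genes did not overlap and were lower, against 9.81% of all genes. Pcdhb1, Pcdhb5 and Pcdhb10 had 0 reads in all 6 samples of KO and the add-backs, which at 3 counts allows up to 0.0207 CPM, and 5 to 7 reads over the WT samples.

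**Figure D5:**
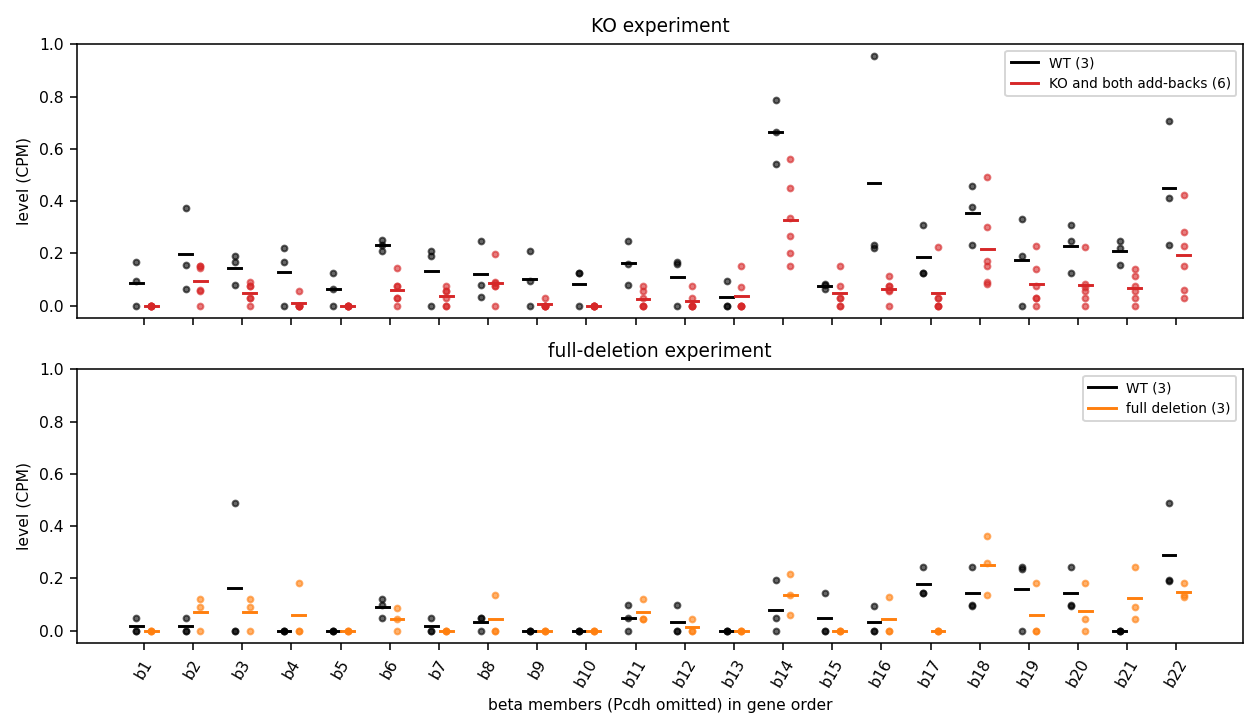
Levels of the 22 beta genes in CPM on a linear axis, with the genes in chromosomal order, a point per sample and a bar at each mean; the upper panel shows WT (black) and the 6 samples of KO and both add-backs (red), the lower panel WT (black) and full deletion (orange) of the second experiment. In the upper panel 21 of the 22 red bars lie below the black bars, while in the lower panel 10 orange bars lie below and 8 above.

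Many other scarce genes had log2 fold changes below 0 against WT in that experiment, but their sums differed by batch. The 7750 genes under a mean count of 10 summed to 755, 398 and 1158 CPM in WT samples a, b and c. In KO and the add-backs of Hmga1 and Hmga2 they summed to 488, 503 and 511 CPM in batch a, below WT. In batch b the sums were 450, 456 and 432 CPM, above WT. In the fit with no filter on low counts, 20 of the 22 beta genes had a log2 fold change below 0 in KO against WT, as had 5066 of the 6995 scarce genes that could be fitted. The medians were -1.57 for beta and -0.94 for the scarce genes. In the Hmga1 add-back 20 of 22 and 4984 of 6995 lay below 0, and in the Hmga2 add-back 21 of 22 and 4888 of 6995. No beta gene passed an adjusted p of 0.05 in this fit (edgeR's quasi-likelihood test), nor did any of the scarce genes against WT (0%). At an unadjusted p under 0.05 stood 0, 0 and 1 of the beta genes in the 3 comparisons, and 2.33%, 1.67% and 2.23% of the scarce genes. The part of this shift in the beta result was not tested.

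Markers of neural cells, in which clustered protocadherins are at home, were looked at for the same samples. The 10 markers summed to 195 to 214 CPM in WT and to 154 to 203 CPM in KO and the add-backs. Tubb3, a tubulin that ESC also express, made up much of the sum, with 88.2 CPM in WT and 88.4 CPM over KO and both add-backs. The markers moved in both directions: of the 8 that could be tested in KO against WT, 5 had a log2 fold change below 0 and 3 above, from -1.37 for Sox1 to 1.25 for Rbfox3. None passed an adjusted p of 0.05 by edgeR's quasi-likelihood test, where 0.0647% of all genes tested did. At an unadjusted p under 0.05 stood 3 lower and 1 higher, where 12.6% of all genes did. Rbfox3, a marker of mature neurons, was at 0.980, 0.543 and 0.664 CPM in WT samples a, b and c and 0.704 to 3.24 CPM in the other 6. The neuronal marker Dcx was at 0.0948, 0 and 0.664 CPM in WT samples a, b and c and at 0 to 0.0296 CPM in the other 6 samples. Sox1, an early neural factor, was at 35.6, 12.3 and 26.8 CPM in WT and 7.64 to 14.1 CPM in the others, which overlap. The 7 fibroblast markers summed to 3.49 to 7.55 CPM in WT and 6.67 to 13.2 CPM in the others, with Dcn, Lum and Postn at 0 in all of the latter. The 2 that could be tested were higher than in WT throughout. Their log2 fold changes were 0.48 and 1.03 in KO, 0.92 and 0.96 in the Hmga1 add-back and 0.63 and 1.22 in the Hmga2 add-back. None passed an adjusted p of 0.05 by edgeR's quasi-likelihood test (0.0647%, 0.0431% and 0.165% of all genes did). At an unadjusted p under 0.05 stood 0, 1 and 1 (12.6%, 13.3% and 16.9% of all genes). Whether a few differentiated cells have a part in the beta levels was not tested, and in bulk samples fewer cells of a type and less RNA per cell cannot be told apart.

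In the full-deletion experiment, the beta sum was 1.28, 2.08 and 1.11 CPM in WT samples a, b and c and 1.39, 0.950 and 1.32 CPM in the full deletion. The groups overlapped, with a log2 ratio of -0.29. Without WT sample b the ratio was 0.03. Of the 22 genes, 10 had a lower and 8 a higher mean in the full deletion, and 4 had no read in any sample. Groups did not overlap for 3 of the 18 beta genes with a read, Pcdhb17 and Pcdhb22 (lower, as 3.19% of all scarce genes) and Pcdhb21 (higher, as 7.49%). Pcdhb22 was at 0.190, 0.490 and 0.193 CPM in WT and at 0.181, 0.130 and 0.136 CPM in the full deletion. Pcdhb21 had 0 reads in the 3 WT samples and 4, 1 and 2 in the full deletion, opposite to its direction in the KO experiment. The WT samples of the full-deletion experiment, scaled on their own, thus had beta sums in the range of the KO and add-back samples of the other experiment rather than of its WT.

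The alpha genes were at the floor in both experiments. The lowest alpha gene held 3, 2 and 9 reads in WT samples a, b and c of the KO experiment, 7 and 1 in KO, 4 and 1 in the Hmga1 add-back, and 11 and 0 in the Hmga2 add-back. In the full-deletion experiment it held 2, 5 and 8 reads in WT and 5, 8 and 5 in the full deletion. Groups overlapped throughout. No alpha gene reached a mean count of 10, and Pcdha11, the highest in the KO experiment, averaged 7.11 counts. Its reads numbered 36 over the 3 WT samples and 28 over the 6 samples of KO and both add-backs. Pcdha6 had 16 and 34 reads, Pcdha2 26 and 24, and the C-type gene Pcdhac1 23 and 25. Between KO and WT, 2 of the 14 alpha genes, Pcdha11 and Pcdhac1, did not overlap and were lower in KO, beside the 9.81% of all genes that did so. Pcdha11 had the largest own part and the largest excess over the lowest alpha gene, 0.115 ± 0.148 CPM (SD, n = 9), while Pcdha10 was the lowest alpha gene in all 9 samples. In the full-deletion experiment 8 of the 14 alpha genes, the C-type gene Pcdhac1 among them, had no excess in any of the 6 samples. The excess of Pcdhac2 was 0.0564 CPM in the KO experiment and 0.0317 CPM in the full-deletion experiment. Own reads of single alpha genes were therefore not detectable at this depth beyond a few counts.

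Genes that act on or beside the clusters were read well in ESC. Of 23 regulators of the clusters, all could be tested in both experiments. By edgeR's quasi-likelihood test 0 passed an adjusted p of 0.05 in Hmga1 KO against WT, with log2 fold changes of -0.53 to 0.20 and 2 at an unadjusted p under 0.05 (0.0647% and 12.6% of all genes). Trim28 and Rest were the most abundant, with 1424 and 801 CPM in WT. In the full deletion 2 of the 23 passed, where 8.25% of all genes did, both lower: Dnmt3b, a de novo DNA methyltransferase (287 to 179 CPM, log2 fold change -0.68, standard error 0.11, adjusted p = 0.0250), and Trim28, a corepressor (-0.60, adjusted p = 0.0468), by edgeR's quasi-likelihood test. The median of the 23 was -0.42, against 0.04 over all genes tested. WT sample b stood apart for this list too, with a summed level of 14020 CPM against 9644 and 9779 CPM in the other WT samples and 7561 to 7742 CPM in the full deletion. Without it the median was -0.22, Dnmt3b was at -0.61, Trim28 at -0.52, Ctcf at -0.29 and Smc3 at -0.45, and 17 of the 23 passed, all lower, beside 42.5% of all genes. Ctcf was at -0.28 in KO (adjusted p = 0.442) and -0.41 in the full deletion (adjusted p = 0.0731), and the cohesin subunit Smc3 at 0.20 and -0.88 (adjusted p 0.558 and 0.0754), none of which passed. Of 16 signalling and processing partners, 0 passed in KO (3 at an unadjusted p under 0.05, where 12.6% of all genes were) and 1 in the full deletion, where 8.25% of all genes did, Pdcd10, which binds the protocadherin tail (-0.58, adjusted p = 0.0409 by edgeR's quasi-likelihood test). Without WT sample b it was at -0.48, and 8 of the 16 passed, 4 in each direction.

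Among the 15 genes listed around the clusters that the files hold, 13 could be tested. None passed in KO against WT, where 3 had an unadjusted p under 0.05 (12.6% of all genes). In the full deletion 2 of the 13 passed, where 8.25% of all genes did, both higher: Arap3, beyond the gamma end (8.34 to 13.7 CPM, log2 fold change 0.72, adjusted p = 0.0332 by edgeR's quasi-likelihood test), and Tmco6, before the alpha cluster (4.92 to 11.0 CPM, 1.15, adjusted p = 0.0283). Taf7, which lies between the beta and the gamma cluster, was at -0.78 (adjusted p = 0.0873), and Hdac3, past the gamma end, at -0.08 (adjusted p = 0.556). Of the 13, 6 lay above 0 and 7 below. Diap1, the gene next to the gamma end, was not analysed here. Without WT sample b, Arap3 was at 0.78, Tmco6 at 0.98, Taf7 at -0.37 and Hdac3 at -0.06, and 8 of the 13 passed, 2 higher and 6 lower.

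Of 12 protocadherins outside the clusters, 3 had enough reads for a test beside KO and 2 beside the full deletion. By edgeR's quasi-likelihood test, 0 passed an adjusted p of 0.05 in any comparison with WT. Among all genes tested, 0.0647% passed for KO, 0.0431% for the Hmga1 add-back, 0.165% for the Hmga2 add-back and 8.25% for the full deletion. With so few members tested, the lack of a call cannot speak for the family. Pcdh1 was the most abundant, with 11.1 CPM in WT and 9.35 CPM in KO (log2 fold change -0.41, adjusted p = 0.437). Of the 3, Pcdh17 had the largest fold, -2.24 (standard error 0.57, adjusted p = 0.193), from 0.948, 0.543 and 0.830 CPM in WT to 0.168 and 0.152 CPM in KO. Among 8 classical cadherins, Cdh1, the cadherin of ESC, was at 654 CPM in WT and 663 CPM in KO, and Cdh2 was at 6.48, 5.51 and 6.68 CPM in WT and 1.57 and 1.67 CPM in KO (log2 fold change -1.90, adjusted p = 0.0655), which did not pass. Set beside these, the lowest gamma gene stood at 46.9 ± 16.0 CPM in WT (SD, n = 3) and 56.7 ± 11.3 CPM in KO (SD, n = 2).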

How the data were processed

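RNA was sequenced on an Illumina HiSeq (50-base single-end reads). The authors trimmed 3 bases, mapped reads to mm9 with Bowtie through QuasR (up to 100 alignments allowed, 1 kept at random) and counted reads on the sense strand per gene of the UCSC knownGene table, and deposited the raw counts of each experiment as a table (whole numbers, with gene width). Submitters' notes also name bcl2fastq 2.17. Reads of near-identical protocadherin exons could thus be placed at random.

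From these counts, edgeR 4.0.16 (R 4.3.3) was run on genes that averaged 10 or more counts in an experiment: TMM scaling and a quasi-likelihood test over all groups of that experiment, with the batch letter as a block in the KO experiment, as the labels and methods pair these samples, and none in the full-deletion experiment. P-values were adjusted by Benjamini-Hochberg over all genes tested. A gene passed at an adjusted p under 0.05, and a strict call (adjusted p under 0.01 and at least 2-fold) was also tried. No clustered protocadherin met it. Fits and calls were tested on simulated data, with changes larger than those of the gamma genes, placed in well-counted genes. The simulation held no batch effect and no outlying sample, so it does not cover small changes, scarce genes or WT sample b. DESeq2 1.42.0 and limma 3.58.1 were alternatives. Sums over clusters have no test, and nor has the excess, which was taken as a gene's count less that of the lowest gene of its cluster in the sample. RPKM used the gene width in the table or, for the excess, that width less the shared exons (GENCODE vM1, exon starts used by at least 3 transcripts). Gene order follows the RefSeq table (GRCm38.p6). Figures used matplotlib 3.10.9. The depth of a sample sets its precision: for counts near 0, intervals are exact Poisson ones and cover counting error only.

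Named by rule were, per cluster and type, the 3 genes with the highest and the gene with the lowest mean CPM in the KO experiment, the C-type genes, and the 3 smallest p-values per comparison; of the other lists, genes past the adjusted threshold and the 2 most abundant. The members, lists and tests were chosen with earlier results of these data known. No sequence is printed.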

Additional observations from a re-analysis of the deposited data

How the results depend on the processing

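The number of clustered protocadherins past an adjusted p of 0.05 stayed at 0 in the 6 KO-experiment comparisons under every alternative. The alternatives were DESeq2 size factors, summed counts, no filter, a mean count of at least 50, DESeq2, limma-trend, only the groups compared, each sample left out and the other choice of replicate block. In the test between the experiments it also stayed at 0, but only DESeq2 size factors and no replicate block were tried there. In the full deletion it was 0 except with DESeq2 (20 higher) and when a sample was left out (0 to 22, the 22 without WT sample b). In the full-deletion experiment, samples with the same replicate letter had correlations of deviations from the group means of 0.0839, 0.0944 and -0.0556. Deviations of 3 samples from their mean are tied to each other, and WT sample b stood apart. These correlations therefore cannot decide whether the letters pair the samples. With the letters as a replicate block, 0 of 22 passed. Without the replicate block in the KO experiment, which brings WT sample c into the comparisons with WT, 0 passed. The gamma genes then moved to log2 fold changes above 0 against WT (0.19 to 0.28 in KO, 0.05 to 0.09 in the Hmga1 add-back and 0.14 to 0.20 in the Hmga2 add-back).

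Cluster sums that moved by more than the spread between samples were the gamma log2 ratio of the full deletion under scaling by summed counts (0.79, against 0.53), and ratios that changed with a sample left out: alpha in the Hmga2 add-back against WT (-3.54 to 0.33), KO (-2.60 to 1.28) and the Hmga1 add-back (-2.18 to 1.69), and beta against KO in the Hmga1 (-0.33 to 0.40) and Hmga2 add-backs (-0.71 to 0.14). The low ends for alpha were without sample a of the Hmga2 add-back, which held 11 of the 11 reads of its lowest gene. Causes were not tested. With 2 samples per KO group, a single sample can decide such sums. Alpha and beta counts were too few for a test, and the gamma genes, whose counts are mostly shared, are not independent. Leaving WT sample b out of the lists was chosen after seeing the data.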
